A study of Mus musculus with 24 samples.

Results

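A set of 10 enzyme genes of serine, one-carbon, proline and asparagine synthesis was followed through liver and liver tumors of mice with and without CHOP, the transcription factor encoded by Ddit3. The genes were Phgdh, Psat1, Psph, Shmt1, Shmt2, Mthfd2, Mthfd1l, Aldh18a1, Pycr1 and Asns, taken as all probes that carry 1 of these 10 symbols in the annotation of the array platform. Of the 10 genes, 8 had a probe, with 11 probes among 25697 in all, and 7 were detected on enough arrays to be tested among 8969 genes. Mthfd1l and Pycr1 are not measured by an annotated probe, and Psph was not detected on any array.

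The arrays held RNA of 24 samples from 9-month-old male mice, either C57BL/6J (wild-type) or Chop-/- mice on that background, which lack the greater part of the CHOP coding sequence in all their cells. At 15 days of age the mice had received 1 injection of PBS or of 25 mg/kg diethylnitrosamine (DEN), a liver carcinogen. Whole liver was sampled after PBS in 3 wild-type and 3 Chop-/- mice and after DEN in 6 wild-type and 7 Chop-/- mice. Large tumors made up the remaining groups, with 3 samples of wild-type and 2 of Chop-/- origin, all after DEN. The DEN-treated livers contained nodules as well as uninvolved tissue, and nothing states which samples came from the same animal, so the p-values measure the spread between these samples.

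Serine is made from the glycolytic intermediate 3-phosphoglycerate in a short chain of steps catalyzed by PHGDH, PSAT1 and PSPH. The serine hydroxymethyltransferases SHMT1 in the cytosol and SHMT2 in mitochondria pass a carbon of serine to folate, and MTHFD2 and MTHFD1L carry that carbon through mitochondria for the synthesis of nucleotides. ALDH18A1 and PYCR1 make proline from glutamate, and ASNS makes asparagine from aspartate and glutamine. Many of these genes are known targets of ATF4, the transcription factor that the integrated stress response induces and that also induces CHOP.

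The promoters of the 10 genes were searched for motifs that link such genes to stress and growth signals, in the RefSeq windows of build GRCm38.p6 that run from 250 bases before to 50 bases after each annotated start. The core of the C/EBP-ATF response element, TGATGNAA on either strand, was present in the windows of Asns and Pycr1, that is in 2 of 10 genes, beside 4.51% of 27025 genes with a window. The E-box CACGTG was present in the window of Aldh18a1, in 1 of 10 genes, beside 8.09% of all genes. The 3 stretches are shown because they are the only matches among the 10 genes, each read 5′ to 3′ along the strand of its gene, with the motif in capitals and 30 bases on either side.
Asns, chr6:7693195-7693262, minus strand: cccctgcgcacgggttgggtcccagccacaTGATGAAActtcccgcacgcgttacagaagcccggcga
Pycr1, chr11:120643814-120643881, minus strand: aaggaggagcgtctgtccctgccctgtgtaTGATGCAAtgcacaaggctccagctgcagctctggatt
Aldh18a1, chr19:40588487-40588552, minus strand: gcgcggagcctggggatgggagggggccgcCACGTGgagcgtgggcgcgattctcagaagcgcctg
The motif begins 23 bases before the start of Asns, 103 bases before that of Pycr1 and 59 bases before that of Aldh18a1. Both windows of Psat1 held neither motif, nor did those of the other 6 genes, which says only that these letters are not in these windows.

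Values are log2 intensities after background correction and quantile normalization, and a probe was counted as detected at a detection p-value under 0.01. Between 8953 and 11248 probes were detected per array. Ddit3 had log2 values of 6.41 to 6.50 in PBS-treated wild-type livers, 6.09 to 6.90 in DEN-treated wild-type livers and 8.37 to 8.90 in wild-type tumors, and was not detected on any of the arrays of Chop-/- mice. The mean of 7 hepatocyte markers lay between 11.91 and 12.37 on all 24 arrays. One DEN-treated Chop-/- liver, array B_15, stood apart in the mean log2 value of 10 tumor and fetal liver markers, which was 9.64 there, against 5.62 to 6.94 in the other 6 livers of its group and 8.66 to 10.88 in the 5 tumors. Leaving it out ended none of the 7 calls in Chop-/- tumors, and values without it are given beside those calls. Chop-/- tumor C_24 also stood apart, with a mean of 9.32 for 3 neutrophil and monocyte markers, against 6.18 in the other Chop-/- tumor and at most 6.55 in any liver. Without C_24 the genes called in Chop-/- tumors against livers fell from 1710 higher and 1822 lower to 1025 and 991, and those called between tumors of the genotypes from 397 higher and 549 lower to 34 and 89. The part of such cells in the results was not tested. The mean of 9 Kupffer cell markers was 6.82 to 7.64 in wild-type tumors against 7.45 to 8.40 in DEN-treated wild-type livers, with overlap. In Chop-/- mice it was 6.18 to 6.48 in tumors against 7.26 to 7.57 in DEN-treated livers. Of these 9 markers 5 were significantly lower and 0 higher in tumors of each genotype. Of all genes 10.2% were lower in wild-type and 20.3% in Chop-/- tumors. In such bulk samples fewer cells of a type and less RNA per cell cannot be told apart.

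**Figure D1:**
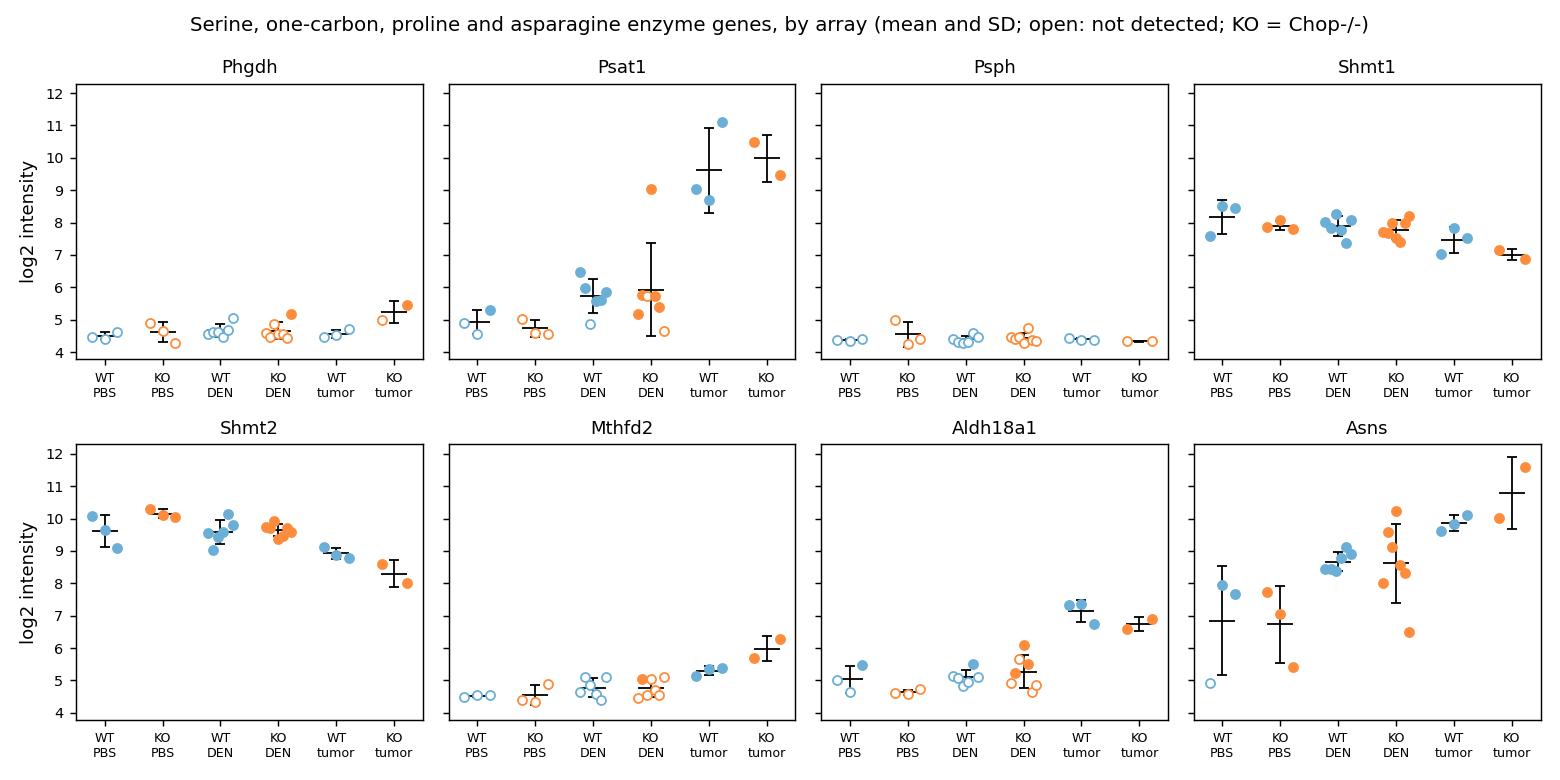
Log2 intensity of the 8 genes with a probe (y axis) in the 6 groups (x axis), with 1 point per array, open where the probe was not detected, and the mean and SD of each group as a bar. Psat1, Aldh18a1 and Asns are high in tumors of both genotypes, Shmt1 and Shmt2 are low there, and 1 DEN-treated Chop-/- liver has a Psat1 value of 9.04.

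Tumors differed from livers in most of these enzymes. In wild-type tumors 4 of the 7 tested genes were higher than in PBS-treated livers (Psat1, Aldh18a1, Asns and Mthfd2) and 0 were lower at an adjusted p under 0.05. Of all genes tested, 19.3% passed in that comparison, 10.8% of them higher and 8.42% lower. Against DEN-treated livers 3 genes were higher in wild-type tumors (Psat1, Aldh18a1 and Mthfd2) and 1 was lower (Shmt2), with 22.3% of all genes called, 12.1% higher and 10.2% lower. In Chop-/- tumors all 7 differed from DEN-treated Chop-/- livers, 5 higher and 2 lower, where 39.4% of all genes were called, 19.1% higher and 20.3% lower. Array weights left 4 of these 7 calls, without Phgdh, Shmt1 and Asns. Phgdh was detected in 1 of the 2 tumors and 1 of the 7 livers. Without C_24, which leaves 1 Chop-/- tumor, the differences of Phgdh, Shmt1 and Asns were 0.32, -0.64 and 1.39. The median log2 difference of the 7 tested genes in these 3 comparisons was 0.77, 0.53 and 1.20, and that of all genes was -0.00, -0.01 and -0.05. The wild-type count against PBS-treated livers left Shmt1 and Shmt2 just outside (adjusted p = 0.0517 and 0.0533), and with the authors' log2 values or with the mean of a gene's detected probes it was 4 higher and 2 lower. Tumors and livers did not overlap for 4, 4 and 5 of the 7 genes in these 3 comparisons. Of all genes 27.6%, 22.4% and 40.6% did not overlap there. Both wild-type comparisons share the same 3 tumors, so they are not independent of each other.

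**Figure D2:**
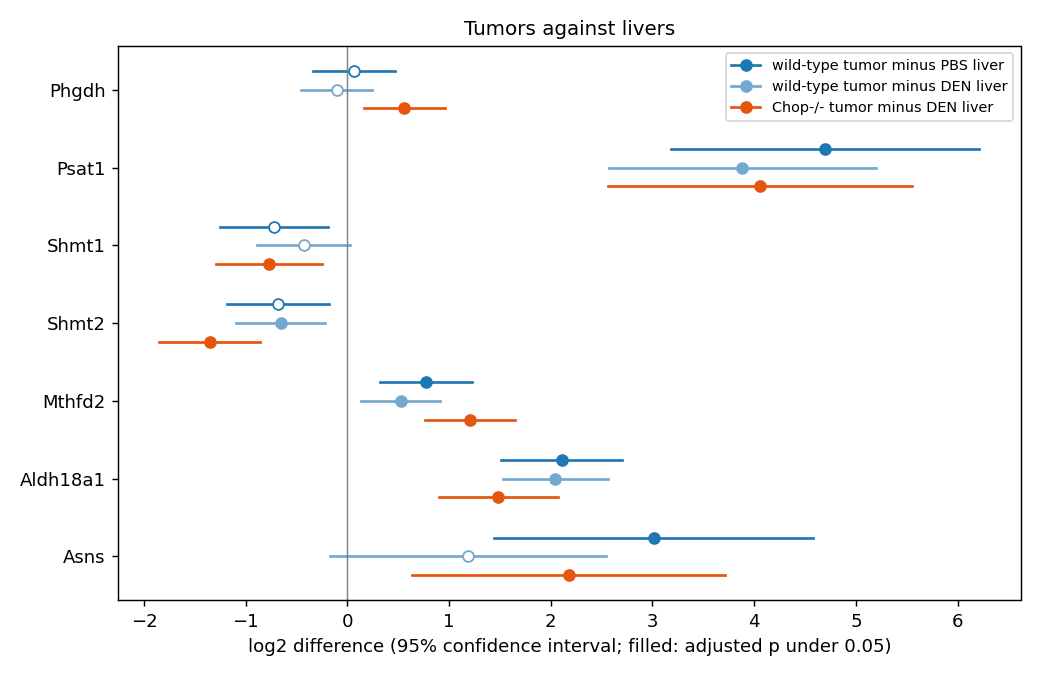
Log2 difference of tumors minus livers (x axis) for the 7 tested genes (y axis), with 95% confidence intervals from limma, filled where the adjusted p is under 0.05. Psat1 lies furthest to the right in all 3 comparisons, with differences of 4.70, 3.88 and 4.06, and Shmt1 and Shmt2 lie to the left of 0.

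Of the 3 enzymes of serine synthesis, PSAT1 was the one whose transcript was detected in all 5 tumors, where it exceeded every liver except B_15. Phgdh and Psph were near or below detection on most arrays, so a difference in them could be missed. PSAT1 is the aminotransferase of the chain. Psat1 lies on chromosome 19 (15905123 to 15925059, GRCm38.p6). In the 3 wild-type tumors its log2 values were 9.05, 8.68 and 11.11. In the 2 Chop-/- tumors they were 10.50 and 9.46. In PBS-treated livers they were 4.90, 4.55 and 5.29 in wild-type and 5.03, 4.59 and 4.57 in Chop-/- mice, with Psat1 detected on 1 of these 6 arrays. All 5 tumors thus exceeded every PBS-treated liver. In wild-type mice 27.6% of all genes had no overlap between tumors and PBS-treated livers. The medians of DEN-treated livers lay between, with values from 4.88 through a median of 5.73 to 6.47 in wild-type mice and from 4.65 through a median of 5.72 to 9.04 in Chop-/- mice. The only liver that reached the tumor range was B_15, at 9.04, and the next highest DEN-treated liver was at 6.47.

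Wild-type tumors exceeded PBS-treated livers in Psat1 by 4.70 on the log2 scale (standard error 0.73, 25.9-fold, adjusted p = 9.79e-05 from limma). They exceeded DEN-treated livers by 3.88 (standard error 0.64, 14.8-fold, adjusted p = 0.000118). The exact permutation test gave an unadjusted p = 0.0119, the smallest that 3 against 6 arrays allow. Chop-/- tumors exceeded DEN-treated Chop-/- livers by 4.06 (standard error 0.72, 16.6-fold, adjusted p = 0.000119), and by 4.57 without B_15 (adjusted p = 1.11e-07). The size depended on the scale, since the authors' log2 values gave 2.93, 2.64 and 2.76 in the same 3 comparisons, all called. Tumor B_12, the highest of the wild-type tumors, widened the wild-type differences, which were 3.95 and 3.14 without it (adjusted p = 0.00138 and 0.00304). Without B_16 the difference in Chop-/- mice was 3.54 (adjusted p = 0.00569). The first letter of an array's name gives 1 of 3 sets. Within sets A and B the wild-type tumors exceeded DEN-treated livers by 2.63 and 5.88, while in sets B and C the Chop-/- tumors exceeded theirs by 3.11 and 4.21.

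**Figure D3:**
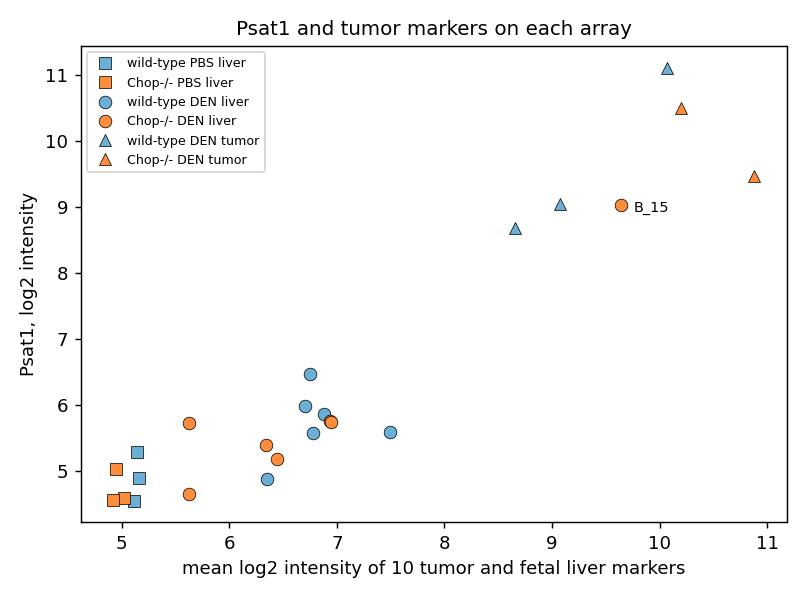
Log2 intensity of Psat1 (y axis) against the mean log2 intensity of 10 tumor and fetal liver markers (x axis), 1 point per array, by group. The 5 tumors and the DEN-treated Chop-/- liver B_15 sit at marker means of 8.66 to 10.88 and Psat1 values of 8.68 to 11.11, apart from the other livers.

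The genes whose values ran most closely with those of Psat1 over the 24 arrays were Fkbp11 (Pearson r = 0.975), Golm1 (r = 0.974), Agfg1 (r = 0.97), Nrg1 (r = 0.968) and Klrb1b (r = 0.967). Golm1 is itself among the 10 tumor markers. These coefficients are descriptive, since tumors and livers form separate clusters and the arrays share their groups. Within the 13 DEN-treated livers Psat1 had r = 0.752 with Aldh18a1 and r = 0.716 with Asns, and r = 0.466 and r = 0.608 in the 12 livers other than B_15.

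The first enzyme of the chain, PHGDH, was near background on these arrays. Phgdh was detected on 2 of 24 arrays, the Chop-/- tumor C_24 at 5.47 and the DEN-treated Chop-/- liver C_23 at 5.16. The other Chop-/- tumor was at 4.98, and the 3 wild-type tumors were at 4.47, 4.53 and 4.71. DEN-treated Chop-/- livers ranged from 4.44 through a median of 4.56 to 5.16, so the groups overlapped. The difference between Chop-/- tumors and livers was 0.56 (standard error 0.19, adjusted p = 0.0235 from limma), without tumor C_24 it was 0.32 (adjusted p = 0.387), and without B_15 it was 0.54 (adjusted p = 0.0332). In wild-type mice the differences were 0.06 against PBS-treated and -0.11 against DEN-treated livers (adjusted p = 0.866 and 0.725), with Phgdh not detected on any array of these 3 groups. Psph, which encodes the phosphatase of the last step, had log2 values between 4.26 and 4.98 on all arrays, below detection throughout, and was not tested.

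Both serine hydroxymethyltransferase genes were lower in Chop-/- tumors than in livers, and both were detected on all 24 arrays. Shmt2 was at 9.12, 8.89 and 8.79 in wild-type tumors and at 8.60 and 7.998 in Chop-/- tumors. PBS-treated livers had 10.09, 9.66 and 9.09 in wild-type mice and 10.30, 10.12 and 10.05 in Chop-/- mice. DEN-treated livers ranged from 9.02 through a median of 9.57 to 10.13 in wild-type and from 9.36 through 9.72 to 9.94 in Chop-/- mice. The Chop-/- tumors lay below every liver, whereas wild-type tumor A_04, at 9.12, overlapped the lowest livers. Between Chop-/- tumors and DEN-treated Chop-/- livers 40.6% of all genes did not overlap.

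Against DEN-treated livers Shmt2 fell by 1.35 in Chop-/- tumors (standard error 0.24, adjusted p = 0.000117 from limma) and by 0.66 in wild-type tumors (standard error 0.21, adjusted p = 0.028). Without B_15 the Chop-/- difference was -1.40, and as the mean of both probes -0.75. The wild-type call was lost when tumor A_08, tumor B_12, liver C_18 or liver C_19 was left out, with an adjusted p of at most 0.123. Against PBS-treated wild-type livers the difference was -0.68 (adjusted p = 0.0533). Another probe of Shmt2, detected on 3 arrays, gave -0.14 in Chop-/- mice, where the brighter probe gave -1.35.

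Shmt1, the cytosolic enzyme's gene, was at 7.01, 7.82 and 7.54 in wild-type tumors and at 7.14 and 6.88 in Chop-/- tumors. DEN-treated livers ranged from 7.38 through a median of 7.91 to 8.26 in wild-type and from 7.40 through 7.71 to 8.20 in Chop-/- mice. The PBS-treated livers were at 7.57, 8.50 and 8.45 and at 7.87, 8.07 and 7.79. Chop-/- tumors lay below all livers, and 40.6% of all genes had no overlap between Chop-/- tumors and DEN-treated Chop-/- livers. In that comparison Shmt1 fell by 0.77 (standard error 0.25, adjusted p = 0.0177 from limma). That call was lost without tumor C_24 (adjusted p = 0.185) and kept without B_15 (-0.81, adjusted p = 0.0146). In wild-type mice tumors and livers overlapped, with differences of -0.72 against PBS-treated and -0.43 against DEN-treated livers (adjusted p = 0.0517 and 0.18).

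Mthfd2, which encodes the mitochondrial folate dehydrogenase and cyclohydrolase, moved the other way at low intensity. It was detected in all 5 tumors, at 5.14, 5.36 and 5.39 in wild-type and at 5.71 and 6.26 in Chop-/- mice, and in 1 of 19 livers. The highest liver value was 5.11, so the tumors did not overlap the livers. Between tumors and DEN-treated livers 22.4% of all genes in wild-type and 40.6% in Chop-/- mice did not overlap. Chop-/- tumors exceeded DEN-treated livers, of which 1 of 7 detected Mthfd2, by 1.20 (standard error 0.21, adjusted p = 0.000119 from limma), and by 1.25 without B_15. The authors' log2 values gave 0.42, also called. For wild-type mice the means were 5.30 in tumors, 4.53 in PBS-treated and 4.77 in DEN-treated livers (adjusted p = 0.0143 and 0.048). No array of these liver groups detected Mthfd2. The lowest detected signals of these arrays were 5.28 to 5.67 after PBS and 5.19 to 5.49 after DEN. The tumor mean lies within both ranges, so no lower bound on a fold can be given. The call against PBS-treated livers was lost without tumor B_12. That against DEN-treated livers was lost without any 1 of 7 arrays, with the authors' log2 values and with no filter on detection. Both were lost in a fit of only the groups compared, and with the replicate block on the authors' log2 values.

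Aldh18a1, which encodes the first enzyme of proline synthesis from glutamate, was higher in tumors of both genotypes. Its log2 values were 7.33, 7.35 and 6.75 in wild-type tumors and 6.60 and 6.90 in Chop-/- tumors. Livers reached at most 6.09, in B_15, and Aldh18a1 was detected on 5 of the 19 liver arrays. PBS-treated livers were at 5.00, 4.65 and 5.46 in wild-type and at 4.62, 4.58 and 4.72 in Chop-/- mice. DEN-treated livers ranged from 4.82 through a median of 5.09 to 5.52 in wild-type and from 4.64 through 5.22 to 6.09 in Chop-/- mice. Wild-type tumors exceeded PBS-treated livers by 2.11 (standard error 0.29, adjusted p = 2.71e-05 from limma) and DEN-treated livers by 2.05 (standard error 0.25, adjusted p = 5.89e-06). Chop-/- tumors exceeded DEN-treated livers by 1.49 (standard error 0.28, adjusted p = 0.000248), and by 1.62 without B_15. No array left out ended any of these 3 calls. Since most liver arrays did not detect Aldh18a1, the size of the difference depends on how low signals are scaled, and the authors' log2 values gave 0.94, 0.92 and 0.62, all called.

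Asns, the asparagine synthetase gene, had its lowest group means in PBS-treated livers and its highest in tumors, although not every step passed the test. The brightest of its 3 probes gave 9.62, 9.85 and 10.10 in wild-type tumors and 10.01 and 11.58 in Chop-/- tumors. DEN-treated livers ranged from 8.38 through a median of 8.61 to 9.11 in wild-type mice, below every wild-type tumor. In Chop-/- mice they ranged from 6.48 through 8.56 to 10.25, the highest being B_15, and overlapped the tumors. PBS-treated livers were at 4.91, 7.96 and 7.67 in wild-type and at 7.73, 7.07 and 5.42 in Chop-/- mice, and the lowest of these, A_01, was not detected.

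Wild-type tumors exceeded PBS-treated livers in Asns by 3.01 (standard error 0.76, 8.06-fold, adjusted p = 0.00658 from limma), and by 2.04 without A_01 (adjusted p = 0.055). Against DEN-treated livers the difference was 1.19 with a 95% confidence interval from -0.17 to 2.54 (unadjusted p = 0.0836 and adjusted p = 0.215 from limma). The exact permutation test on these 9 arrays gave p = 0.0119, the smallest possible and not adjusted for the number of genes. The groups did not overlap, as was true of 22.4% of all genes. Chop-/- tumors exceeded DEN-treated livers by 2.18 (standard error 0.74, 4.52-fold, adjusted p = 0.0229), by 2.45 without B_15 (adjusted p = 0.00802) and by 1.39 without tumor C_24 (adjusted p = 0.335). That tumor is the one high in neutrophil and monocyte markers. Within array sets B and C the Chop-/- difference was 0.32 and 3.79.

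**Figure D4:**
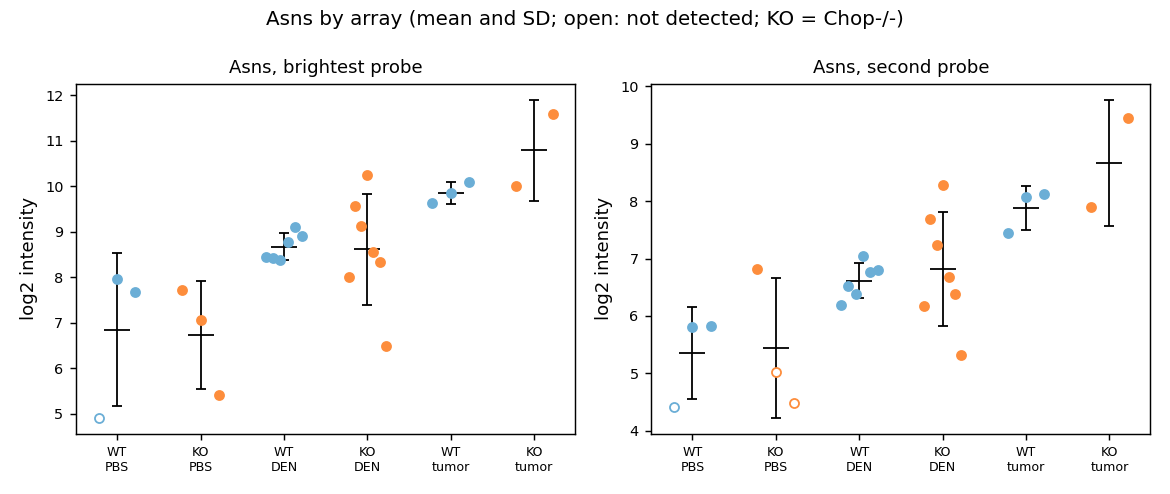
Log2 intensity (y axis) of the brightest probe of Asns, left, and of the second brightest, right, in the 6 groups (x axis), with 1 point per array, open where not detected, and the mean and SD. Tumor values are 9.62 to 11.58 on the left and 7.44 to 9.45 on the right, and array A_01 is the lowest PBS-treated wild-type liver for both probes.

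The second probe of Asns, detected on 21 arrays, gave log2 differences of 2.54, 1.27 and 1.85 in the same 3 comparisons. It was 7.44, 8.07 and 8.13 in wild-type tumors and 7.90 and 9.45 in Chop-/- tumors. The third probe, detected on tumor C_24 alone, gave differences of 0.47, 0.29 and 1.09.

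Whole livers of DEN-treated and PBS-treated mice did not differ past the threshold in these enzymes. Between DEN-treated and PBS-treated livers 0 of the 7 genes were called by limma in wild-type and 0 in Chop-/- mice, where 0% and 0.0223% of all genes passed. At an unadjusted p under 0.05 the counts were 1 of 7 in wild-type (Asns) and 3 of 7 in Chop-/- mice (Shmt2, Aldh18a1 and Asns), beside 2.74% and 7.92% of all genes. Asns was higher by 1.83 in wild-type mice (standard error 0.66, adjusted p = 1) with no overlap of the groups, which was seen for 1.59% of all genes, and higher by 0.86 without A_01. In Chop-/- mice the difference of Asns was 1.88 (standard error 0.64, adjusted p = 0.501). Shmt2 differed by -0.51 in Chop-/- mice, again without overlap, as did 6.28% of all genes (adjusted p = 0.557). Psat1 had differences of 0.81 in wild-type and 1.20 in Chop-/- mice (adjusted p = 1 and 0.638), the latter 0.68 without B_15.

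Loss of CHOP was not accompanied by a called difference in any of these enzymes in any tissue. Between Chop-/- and wild-type mice 0 of the 7 genes were called by limma in PBS-treated livers, DEN-treated livers or tumors, where 0.0223%, 0.0223% and 10.5% of all genes passed (in tumors 4.43% higher and 6.12% lower). At an unadjusted p under 0.05 the counts were 1 of 7 (Shmt2), 0 of 7 and 3 of 7 (Phgdh, Shmt2 and Mthfd2), beside 10.5%, 1.68% and 26.4% of all genes. A p that misses the threshold does not show that the genotypes were alike, and the intervals were wide for the genes with the largest spread. For Psat1 the difference of Chop-/- minus wild-type was -0.19 in PBS-treated livers (95% confidence interval -1.71 to 1.33), 0.20 in DEN-treated livers (-0.84 to 1.23) and 0.37 in tumors (-1.33 to 2.07). For Asns it was -0.11 (-1.68 to 1.46), -0.06 (-1.12 to 1.01) and 0.94 (-0.81 to 2.69). For Aldh18a1 it was -0.40 (-0.99 to 0.20), 0.17 (-0.24 to 0.58) and -0.39 (-1.06 to 0.27).

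**Figure D5:**
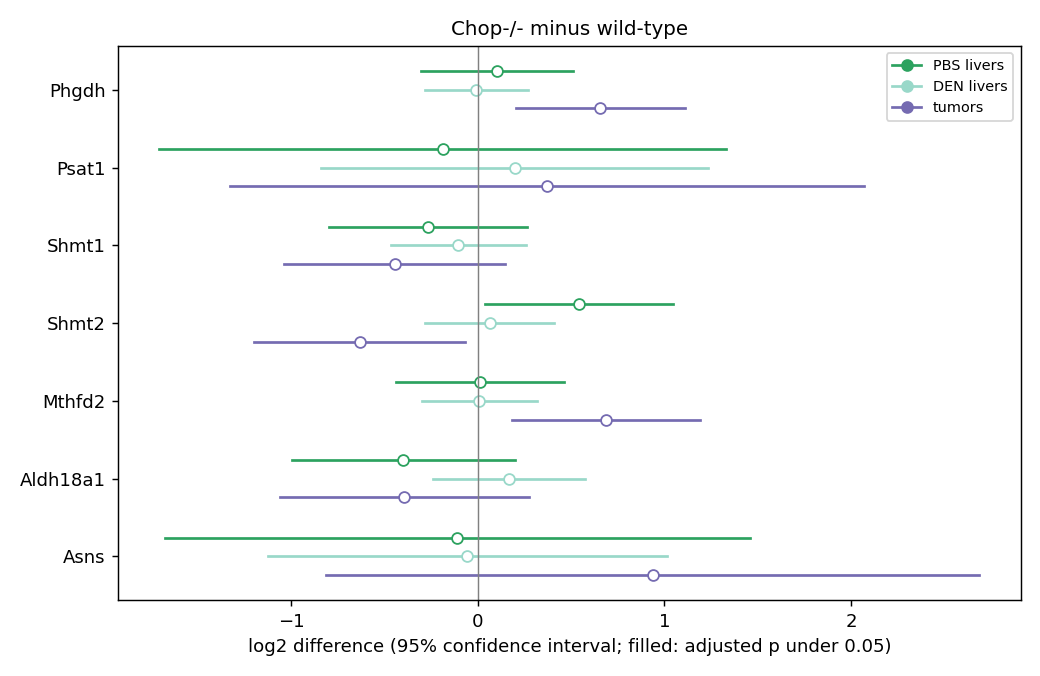
Log2 difference of Chop-/- minus wild-type (x axis) for the 7 tested genes (y axis), by tissue, with 95% confidence intervals from limma; open circles mean an adjusted p of 0.05 or more. No circle is filled. The intervals of Phgdh, Shmt2 and Mthfd2 in tumors and that of Shmt2 in PBS-treated livers (0.04 to 1.05) do not include 0.

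In tumors the 3 genes with the smallest p were Phgdh, Mthfd2 and Shmt2, and in each the 2 Chop-/- tumors did not overlap the 3 wild-type tumors, which was true of 30.3% of all genes. Mthfd2 was higher by 0.69 (standard error 0.24, adjusted p = 0.0709) and Phgdh by 0.66 (standard error 0.22, adjusted p = 0.0565). Phgdh was not detected in the wild-type tumors or in Chop-/- tumor B_16, so no fold is given for it. Shmt2 differed by -0.63 (standard error 0.27, adjusted p = 0.137), while in PBS-treated livers it differed by 0.54 (adjusted p = 0.47). The other probe of Shmt2 gave 0.31 in tumors and -0.41 in PBS-treated livers, the opposite sign in both. It was detected in no tumor and in 1 PBS-treated liver, so these 2 values lie near background. Shmt2 lies on chromosome 10 (127517123 to 127522444, GRCm38.p6), 220.8 kb from Ddit3, and effects of the targeted locus on it were not tested. Without tumor C_24 the tumor differences of Mthfd2, Phgdh and Shmt2 were 0.41, 0.42 and -0.33. Only array set B held tumors of both genotypes, 1 of each, and there these differences were 0.31, 0.28 and -0.185. Psat1 and Asns differed by -0.61 and -0.09 in set B, opposite in sign to their differences over all tumors, and the other tested genes kept their sign. Array set and genotype thus cannot be fully told apart in tumors. Exact permutation tests of 2 against 3 arrays cannot go below p = 0.1.

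The difference between genotypes in the effect of the tumor was tested as an interaction, the tumor minus DEN-treated liver difference of Chop-/- mice less that of wild-type mice. By limma 0 of the 7 genes passed, against 4.69% of all genes (1.64% higher and 3.05% lower), and at an unadjusted p under 0.05 there were 3 of 7 (Phgdh, Shmt2 and Mthfd2), beside 21.8% of all genes. The interaction was 0.17 for Psat1, with a 95% confidence interval from -1.82 to 2.16, and -0.56 for Aldh18a1 (-1.34 to 0.22). It was 0.99 for Asns (-1.06 to 3.04). Without B_15 these 3 values were 0.69, -0.43 and 1.26, with 0 of 7 genes called. For the interaction of genotype and DEN in whole liver 0 of 7 genes passed by limma, and 0 of 7 had an unadjusted p under 0.05, beside 0% and 3.52% of all genes. The study itself called genes by a change over 1.5-fold with an unadjusted p under 0.05. By that rule 3 of the 7 genes passed between the tumors of the genotypes and 3 in the tumor interaction, beside 20.4% and 18.9% of all genes, and 1 and 2 passed between DEN-treated and PBS-treated livers of wild-type and Chop-/- mice, beside 0.903% and 2.42%.

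Among enzymes that break down glycine, serine and their methylated forms, those that passed were lower in tumors. Of 18 such genes 11 were tested. In wild-type tumors 5 were lower and 0 higher against PBS-treated livers and likewise against DEN-treated livers, where 8.42% and 10.2% of all genes were lower. In Chop-/- tumors 6 were lower and 0 higher, where 20.3% of all genes were lower. The median log2 differences were -0.45, -0.43 and -1.45. Gnmt, the glycine N-methyltransferase of liver, fell by 2.11 in wild-type tumors against DEN-treated livers (standard error 0.45, adjusted p = 0.00154 from limma). Dmgdh and Sardh, which demethylate dimethylglycine and sarcosine in mitochondria, differed by -1.22 and -1.29 in the same comparison (adjusted p = 0.00078 and 0.000128). In Chop-/- tumors Sardh fell by 2.08, Dmgdh fell by 2.12, and Srr, the serine racemase, fell by 1.73 (adjusted p = 7.49e-07, 2.97e-06 and 3.51e-06). These 3 calls held without C_24 and without B_15.

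Other genes of the folate cycle moved in both directions. Of 17 listed 10 were tested, and against DEN-treated livers 2 were higher and 4 lower in wild-type tumors, and 2 higher and 5 lower in Chop-/- tumors, with medians of -0.11 and -0.27, beside 12.1% higher and 10.2% lower, and 19.1% higher and 20.3% lower, of all genes. Against PBS-treated livers 1 was higher and 1 lower in wild-type tumors. Aldh1l2, the mitochondrial formyltetrahydrofolate dehydrogenase, was higher by 1.40 in wild-type and 2.43 in Chop-/- tumors against DEN-treated livers (adjusted p = 0.0138 and 0.000199 from limma). Its cytosolic counterpart Aldh1l1 fell by 1.16 in wild-type and dropped by 1.39 in Chop-/- tumors (adjusted p = 0.00756 and 0.00263), and Mthfd1, the cytosolic trifunctional folate enzyme, fell by 0.51 and dropped by 1.30 (adjusted p = 0.0391 and 2.31e-05).

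In the rest of proline, glutamate and asparagine metabolism 12 genes were tested. Against DEN-treated livers 1 was higher and 3 were lower in wild-type tumors, and 1 was higher and 6 were lower in Chop-/- tumors, where 10.2% and 20.3% of all genes were lower. The higher gene was Gpt2, an alanine aminotransferase, in wild-type tumors (0.65, adjusted p = 0.0412 from limma) and Glud1, the glutamate dehydrogenase, in Chop-/- tumors (1.42, adjusted p = 0.0134), a call lost without C_24 (adjusted p = 0.102). The lower genes included Prodh, the mitochondrial proline oxidase, at 8.70 to 9.85 in DEN-treated livers of both genotypes and 5.15 to 7.28 in wild-type tumors, and not detected in either Chop-/- tumor (adjusted p = 5.95e-07 and 1.02e-09). Oat, the ornithine aminotransferase, differed by -2.93 and -3.15 (adjusted p = 0.00061 and 0.000464), the latter -5.39 without C_24. Glul, the glutamine synthetase, differed by -1.57 and -3.76 (adjusted p = 0.00175 and 1.75e-07). Between the tumors Glul differed by -2.22 in Chop-/- minus wild-type (adjusted p = 0.00306), and by -1.69 without C_24 (adjusted p = 0.128).

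Of 8 tested genes of the methionine cycle and transsulfuration, 0 were higher and 1 lower in wild-type tumors and 0 higher and 4 lower in Chop-/- tumors, each against DEN-treated livers. The wild-type count is near the 10.2% of all genes that were lower there, and the Chop-/- background was 20.3%. Cth, which makes cysteine from cystathionine, fell by 1.83 in wild-type tumors (adjusted p = 0.00224 from limma). Bhmt, which remethylates homocysteine with betaine, fell by 3.03 in Chop-/- tumors (adjusted p = 3.66e-05).

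Among 6 tested amino acid transporters of the ATF4 program, 1 was higher and 0 lower in wild-type tumors against DEN-treated livers, beside 12.1% of all genes higher. In Chop-/- tumors 3 were higher and 1 lower, beside 19.1% higher and 20.3% lower of all genes. The Chop-/- median was 0.55, and -0.02 without C_24, which leaves 1 Chop-/- tumor. The mean over the 6 genes was 9.29 in C_24 and 7.48 in B_16, which lies within the 7.05 to 7.74 of DEN-treated Chop-/- livers. Slc7a11, the cystine carrier, was at 11.82 in C_24 and at 5.07, not detected, in B_16, and was not detected in any liver. Slc1a4, a carrier of serine and other small neutral amino acids, was higher by 1.98 in wild-type tumors (adjusted p = 0.00263 from limma) and by 2.32 in Chop-/- tumors (adjusted p = 0.001), the latter 1.67 without C_24 (adjusted p = 0.0751). Of 16 tested regulators and targets of the integrated stress response 9 were higher and 0 lower in wild-type tumors against DEN-treated livers, with a median of 0.76. In Chop-/- tumors 7 were higher and 0 lower, with a median of 0.70. Of all genes 12.1% were higher in wild-type and 19.1% in Chop-/- tumors. The 16 genes include Ddit3, which was not detected in Chop-/- mice. Without C_24, which leaves 1 Chop-/- tumor, the Chop-/- median was 0.62. The 4 higher genes of smallest p then had smaller differences. Atf3 went from 2.77 to 2.18, Ddit4 from 3.05 to 1.67, Nupr1 from 2.39 to 1.67 and Eif4ebp1 from 1.22 to 0.76. Of the 7 higher genes 1 had a larger difference. Atf3, a stress-induced transcription factor, was at 7.05 to 8.67 in wild-type tumors and at 6.92 and 8.10 in Chop-/- tumors, and was not detected in any liver (adjusted p = 1.36e-07 and 6.15e-07 against DEN-treated livers).

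Of 4 tested glycolytic genes around 3-phosphoglycerate, 0 were called by limma in wild-type tumors against either liver group. In Chop-/- tumors 2 were higher and 1 lower. Of all genes 19.3% and 22.3% were called in wild-type tumors against PBS-treated and DEN-treated livers, and 39.4% in Chop-/- tumors. Here too C_24 stood apart, with a mean over the 4 genes of 10.23 against 8.97 in B_16, 8.46 to 8.89 in wild-type tumors and at most 9.06 in livers. Pkm, the pyruvate kinase gene of muscle and proliferating cells, was at 11.93 in C_24, 8.35 in B_16, 7.13 to 7.79 in wild-type tumors and 6.83 to 7.71 in DEN-treated Chop-/- livers. It was higher by 3.06 in Chop-/- tumors than in livers (adjusted p = 2.93e-05 from limma) and by 1.27 without C_24 (adjusted p = 0.00347). Pgam1, the phosphoglycerate mutase, was higher by 0.93, and Pklr, the liver pyruvate kinase, fell by 1.05 (adjusted p = 0.00306 and 0.00844), and both calls were lost without C_24 (adjusted p = 0.35 and 0.133). Between the tumors Pkm and Pgam1 were higher in Chop-/- mice by 2.61 and 1.16 (adjusted p = 0.00431 and 0.00833), but by 0.82 and 0.59 without C_24 (adjusted p = 0.237 and 0.354). Of 6 tested purine synthesis genes 1 was lower in wild-type tumors against either liver group, where 8.42% and 10.2% of all genes were lower. The gene was Paics, which fell by 1.06 against DEN-treated livers (adjusted p = 0.00184 from limma). In Chop-/- tumors 1 was higher and 1 lower, beside 19.1% higher and 20.3% lower of all genes. The Chop-/- median was -0.09, and -0.44 without C_24, which leaves 1 Chop-/- tumor.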

How the data were processed

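Each of the 24 RNA samples was measured on 1 array of the MouseRef-8 v2.0 BeadChip (Illumina). The authors scanned the arrays and exported bead-averaged intensities with GenomeStudio 2011.1; of the deposited intensity values 26.9% are below 0, so background had been subtracted. A detection p-value for each probe and array was deposited too. Log2 values made by the authors were used as a cross-setting. Groups of arrays were read through the array names in a supplementary table of the study, and 48 columns of bead counts and bead errors were not used. Intensities went through neqc of limma 3.58.1 (normexp correction from detection p-values, an added 16, log2, quantile normalization) under R 4.3.3; statmod 1.5.0 served the random block.

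Of 25697 probes, 23978 carry 1 gene symbol and 1719 none. A probe needed a detection p under 0.01 on 2 or more arrays, and the brightest such probe stands for its gene. A single limma fit held the 24 arrays in 6 groups, with Benjamini-Hochberg adjustment over 8969 genes and a call at an adjusted p under 0.05. Where every array of a group missed a gene, no fold is given. The fit was tested on simulated data. The 10 enzymes, the gene lists and the motifs were chosen with earlier results of these data known. All 10 enzymes are named, with up to 4 called genes of smallest p per list and comparison, and the 5 genes most like the enzyme of widest range. Alternatives were the authors' log2 values, no further background correction, other detection filters, median scaling, the mean of probes, array weights, a fit of only the groups compared, blocks for array set (fixed or random) or replicate number, the study's thresholds (1.5-fold and p under 0.05), and leaving out each array. The number of arrays limits the precision.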

Additional observations from a re-analysis of the deposited data

Results flagged for a closer look

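Each of the 7 tested genes was checked for a stray array in the 2 groups of more than 3 arrays, and 1 of these 14 checks marked a sample, where chance marks about 5% of groups. The DEN-treated Chop-/- liver B_15 had a log2 value of 9.04 for Psat1, and the other 6 livers of its group had 4.65 to 5.75. The same array had a mean of 9.64 for the 10 tumor and fetal liver markers and of 6.43 for 7 cell cycle genes, against 6.88 to 7.37 in tumors. The part of tumor tissue in that sample was not tested. Without it the Psat1 difference between Chop-/- and wild-type DEN-treated livers changed from 0.20 to -0.32 (adjusted p = 1 from limma in both).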

How the results depend on the processing

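Of 554 alternative values of the 28 single-gene differences with an unadjusted p under 0.05, 502 kept their direction and stayed called or stayed not called. Another 30 lost the call, 22 gained one and 0 changed direction. Differences not called in the main fit are among those kept. The 28 were chosen by their p in these data and the alternatives share most arrays, so a kept direction is no independent support. All 3 tumor differences of Psat1 and of Aldh18a1 and the Chop-/- tumor differences of Shmt2 and Mthfd2 stayed called throughout, but the authors' log2 values shrank those of Psat1, Aldh18a1 and Mthfd2, as given beside them. In wild-type tumors against PBS-treated livers Shmt1 and Shmt2 gained a call in 7 and 6 of 17 alternatives. Leaving out 1 array gave 3 to 5 called genes for wild-type tumors against PBS-treated livers, 2 to 4 against DEN-treated livers (2 without A_08, B_12 or C_18) and 4 to 7 for Chop-/- tumors (4 without C_24). For Chop-/- against wild-type tumors it gave 0 to 3 (Phgdh, Mthfd2 and Shmt2 without B_16, Phgdh without B_12) and for the tumor interaction 0 to 2. Array weights gave 4 called genes in Chop-/- tumors, without Phgdh, Shmt1 and Asns. Between tumors 1 gene was called without further background correction (Mthfd2), which also gave 1 in the tumor interaction, and 1 with median scaling (Phgdh). At the study's thresholds 3 genes passed between tumors and 3 in the tumor interaction, and 1 and 2 between DEN-treated and PBS-treated livers of wild-type and Chop-/- mice. With the replicate block, on the authors' log2 values, 5, 3 and 6 genes were called in the 3 tumor comparisons and 0 in the others. Same-numbered tumors and DEN-treated livers of the same genotype had correlations of -0.15 to 0.08. With so few arrays per group these cannot show whether 2 samples came from the same animal. The causes of these changes were not tested. Low signals limit Phgdh, Psph and Mthfd2, which lie near or under the detection limit in most livers.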
